A study of Mus musculus with 2 samples.

Results

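The Hox cluster genes were taken as every gene line of the deposited tables whose symbol is Hoxa, Hoxb, Hoxc or Hoxd followed by digits alone, which gave 39 genes of 27998. They fell into 11 genes of the Hoxa cluster, 10 of Hoxb, 9 of Hoxc and 9 of Hoxd, and into 13 paralogue groups, the sets of Hox genes that hold the same place in each cluster. Single cells came from eye organoids, floating aggregates of mouse embryonic stem cells that form optic vesicles. The stem cells were of the Rax-GFP line, in which 1 Rax allele carries a green fluorescent protein gene (Rax-GFP knockin Het) and which derives from the EB5 line. Both groups shared that genotype and a culture in serum-replacement medium with Matrigel, and they differed in culture time, day 6 (after the vesicles have begun to bud) against day 4 (the eye field stage). Each day was 1 library of the 10x Genomics 3′ v2 kit, into which 3 biological replicates had been pooled before the library was made. Cells could not be traced back to a replicate, and all came from a single stem cell line. Each day therefore counts as 1 sample, the days cannot be compared by a test over samples, and the intervals below describe the error of counting and nothing else.

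Hox genes encode homeodomain transcription factors that give cells their position along the head-to-tail axis. They lie in clusters, and genes at the low-numbered end of a cluster are switched on first and reach furthest forward, up to the hindbrain, whereas high-numbered genes mark the trunk and tail. Hox proteins bind DNA together with cofactors of the Pbx, Meis and Pknox families, retinoic acid is a well-known inducer of the low-numbered genes, and Polycomb complexes keep the clusters silent in other cells. The forebrain and the eye, which these organoids model, form in front of the Hox domain.

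Hox and Pbx proteins bind DNA as pairs at a shared element, here written as the letters TGATNNAT, and the promoters of Hoxa2 and Hoxb1 are shown because both hold it and both genes were among those with more RNA on day 6, as described below. Promoter windows of 300 bases (250 before and 50 after the start of the gene) were read from RefSeq for build GRCm38.p6, where 22 of the 39 members had an entry. The first sequence lies at chr6:52164782-52165081 on the minus strand with the match at bases 140 to 147, and the next at chr11:96365508-96365807 on the plus strand with the match at bases 89 to 96. Capitals mark the match, and both sequences are written along the gene.
Hoxa2: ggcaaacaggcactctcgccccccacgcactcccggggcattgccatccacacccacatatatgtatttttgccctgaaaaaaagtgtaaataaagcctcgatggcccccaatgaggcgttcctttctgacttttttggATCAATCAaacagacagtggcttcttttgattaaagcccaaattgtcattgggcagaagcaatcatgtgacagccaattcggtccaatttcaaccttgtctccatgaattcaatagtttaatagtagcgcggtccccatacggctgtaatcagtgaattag
Hoxb1: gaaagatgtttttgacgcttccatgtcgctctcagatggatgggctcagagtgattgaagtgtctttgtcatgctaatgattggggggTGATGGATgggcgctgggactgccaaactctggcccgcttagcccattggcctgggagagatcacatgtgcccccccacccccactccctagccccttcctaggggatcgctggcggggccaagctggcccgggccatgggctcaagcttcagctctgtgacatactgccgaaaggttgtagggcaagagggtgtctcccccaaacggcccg
With both strands searched, 4 of 24 member promoters held the element (16.7%), against 2906 of all 32851 promoters of the same length (8.85%). The other matches were in Hoxb8 and in 1 of the promoters of Hoxd11. These matches are a description of the letters and were not tested against binding.

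After filtering, 6641 cells were kept on day 6, with 87800738 captured RNA molecules in sum (unique molecular identifiers, UMIs) and a median of 12514 per cell. On day 4, 8147 cells were kept, with 98643495 UMIs and a median of 11216. Levels are given as CPM, which are counts per 1000000 UMIs of the summed cells. A count of 0 allows up to 3 UMIs, which is 0.0342 CPM on day 6 and 0.0304 CPM on day 4. The libraries shared 78 barcodes among their kept cells, and these cells held 0 Hox UMIs on day 6 and 1 on day 4.

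Hox RNA was rare on both days and higher on day 6. The members summed to 472 UMIs on day 6, against 119 on day 4, or 5.38 CPM (95% interval 4.90 to 5.88) against 1.21 CPM (0.999 to 1.44). The ratio was 4.46 (3.64 to 5.50). A member was counted as detected from 3 UMIs, and 17 members were detected on day 6, against 10 on day 4. Of the 39 genes, 12 had no UMI in either library: Hoxa4, Hoxa6, Hoxa9, Hoxa11, Hoxa13, Hoxb6, Hoxc5, Hoxc6, Hoxc11, Hoxd3, Hoxd10 and Hoxd12. Hoxb5 was the 1 gene seen on day 4 alone, with 1 UMI. Several undetected members have gene models that overlap other genes on the same strand, such as Hoxc5, which overlaps 6, and Hoxa4 and Hoxa6, which lie within the span of Hoxa3. Among detected members, Hoxa2 overlaps 1 other gene on the same strand. How the counting treated reads in shared stretches is not given in the sources used here. The counts of overlapping genes, Hoxa2, Hoxa3, Hoxa5, Hoxd3 and Hoxd4 among them, are therefore uncertain.

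Hoxb1, which keeps itself on through its own enhancer in a single segment of the hindbrain, had 43 UMIs in 34 cells on day 6, against 12 UMIs in 9 cells on day 4, a ratio of 4.03 (2.09 to 8.39). Hoxa2, which patterns hindbrain segments and the crest cells that leave them, had 64 UMIs in 47 cells on day 6, against 10 UMIs in 10 cells on day 4, a ratio of 7.19 (3.67 to 15.7). Hoxb2, a hindbrain gene that acts downstream of Hoxb1 and Egr2, had 68 UMIs in 44 cells on day 6, against 22 UMIs in 5 cells on day 4, a ratio of 3.47 (2.12 to 5.90). The day 4 count of Hoxb2 was thus concentrated in few cells, which are described at the end. In build GRCm38, Hoxa2 lies at chr6:52162417-52164831 on the minus strand, and Hoxb1 lies at chr11:96365752-96368256 and Hoxb2 at chr11:96350525-96354012, both on the plus strand.

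Hoxb4, a gene of the posterior hindbrain and neck, had 10 UMIs in 9 cells on day 6, against 0 on day 4, at least 3.74-fold higher with the day 4 library set to 3 UMIs. The 3 trunk and tail genes with at least 10 UMIs in a library had smaller ratios, with intervals that overlap those of Hoxb1 and Hoxb2. Hoxb9, a gene of the thoracic trunk, had 18 UMIs on day 6, against 17 on day 4, and Hoxc13, known for its part in hair formation, had 17 against 11. Their ratios were 1.19 (0.578 to 2.46) and 1.74 (0.767 to 4.10), and that of Hoxa7, a trunk gene with 12 UMIs against 5, was 2.70 (0.884 to 9.77). These 3 intervals take in both no difference and one larger than 1.5-fold.

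Because no test over samples was possible, calls rest on size: a ratio of at least 1.5-fold in either direction whose interval leaves out 1, for genes with 10 or more UMIs in the 2 sides together. Of the 8 members that could be judged, 5 were higher on day 6, among them Hoxa2, Hoxb1, Hoxb2 and Hoxb4, and 0 were lower. Of all 16641 genes judged in the same way, 19.2% were higher and 14.3% lower. The members below 10 UMIs in each library had at most 7 UMIs on day 6 (Hoxa5), against at most 6 on day 4 (Hoxd1 and Hoxd13).

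**Figure D1:**
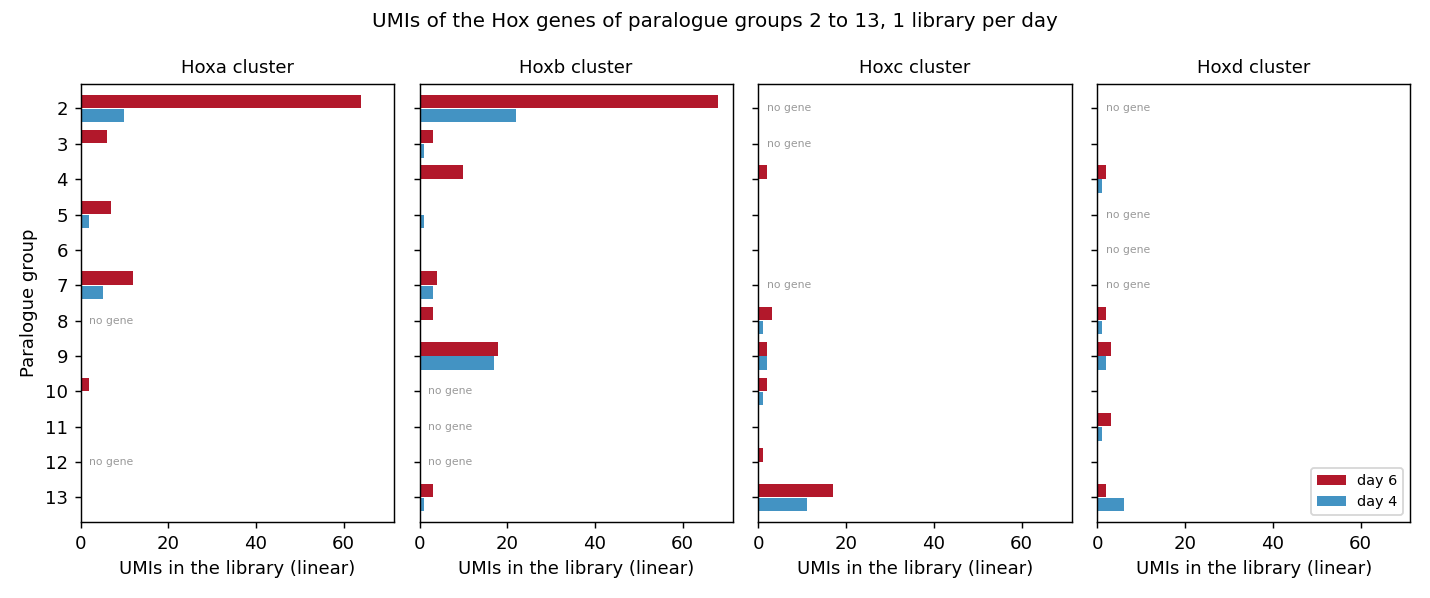
UMIs of the Hox genes of paralogue groups 2 to 13 (horizontal axis, linear) by paralogue group (vertical axis) in the 4 clusters, with day 6 bars above day 4 bars and 1 library per day; the long day 6 bars are Hoxb2 (68 UMIs) and Hoxa2 (64). Where a cluster has no gene of a group, the row says so.

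By paralogue group, groups 1 and 2 held most Hox UMIs, 77.3% of all on day 6, against 52.9% on day 4. Group 2 had 132 UMIs on day 6, against 32 on day 4, a ratio of 4.63 (3.13 to 7.05). Group 4 had 14 UMIs on day 6, 10 of them of Hoxb4, against 1 on day 4, a ratio of 15.7 (2.39 to 665). Group 9 had 23 UMIs on day 6, against 21 on day 4, and group 13 had 22 against 18, with ratios of 1.23 (0.651 to 2.34) and 1.37 (0.703 to 2.72). Group 6 had none in either library. Summed over groups 1 to 3 the ratio was 6.57 (5.03 to 8.70), over groups 4 to 8 it was 3.61 (1.95 to 7.12), and over groups 9 to 13 it was 1.45 (0.948 to 2.24). The first 2 of these intervals leave out 1 and overlap each other, and the last 2 overlap as well.

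By cluster, Hoxa had 279 UMIs on day 6, against 30 on day 4, a ratio of 10.4 (7.16 to 15.8). Hoxb had 152 against 57, a ratio of 3.0 (2.20 to 4.14), and Hoxc had 27 against 15, a ratio of 2.02 (1.04 to 4.09). Hoxd was the 1 cluster with fewer UMIs on day 6, 14 against 17, at a ratio of 0.925 (0.422 to 1.99), which takes in no difference.

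The cells were grouped with all Hox genes, the partner genes and the listed genes kept out of the clustering, so that no member shaped a group. Joint clustering of both days put 50.8% of the day 6 Hox UMIs in an optic vesicle-like cluster, 26.1% in a pluripotent-like cluster, 15.9% in an epiblast-like cluster, 6.78% in an endoderm-like cluster and 0.212% in a neural crest-like cluster. It formed no midbrain/hindbrain-like cluster, so day 6 was also clustered alone at a finer resolution, a choice made after the data were seen. That step gave a midbrain/hindbrain-like class of 268 cells (4.04% of day 6), named from En1, Wnt1, Pax3 and Pax7, markers of the midbrain, the hindbrain and the dorsal neural tube. Of these cells, 217 had sat in the optic vesicle-like cluster of the joint clustering, 22 in the pluripotent-like, 18 in the endoderm-like and 11 in the epiblast-like cluster.

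The labelled cell type, retina progenitors, was checked against its markers. In the midbrain/hindbrain-like class the summed level of the 8 optic vesicle markers was 68.5 CPM, with 2 of them, Vax1 among these, at 0, against 860 CPM in the clusters that received no other name here (called the remaining clusters). The 12 midbrain/hindbrain markers summed to 223 CPM, against 19.9 CPM in the remaining clusters, and the 6 spinal cord and tail markers to 2.45 CPM, against 0.304 CPM, with Cdx4 and T at 0 in the class. Markers of other cells were also high in it. The 10 neural crest markers summed to 617 CPM, against 63.6 CPM, of which Crabp1, a retinoic acid binding protein, made up 539 CPM, against 45.6 CPM, with Sox10 at 0.272 CPM and Snai2 at 0 in the class. The 8 neuron markers summed to 457 CPM, against 68.1 CPM, most of it Tubb3 (212 CPM) and Stmn2 (198 CPM). The name therefore rests on the markers given above and not on the highest sum.

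Most Hox UMIs of day 6 were in the midbrain/hindbrain-like class. It held 245 of 472 UMIs (51.9%), 66.6 CPM (58.6 to 75.5), against 2.70 CPM (2.36 to 3.07) over the other day 6 cells. With each cell thinned to 5000 UMIs, so that depth does not set the share, 18.3% of its cells (49 of 268) had a Hox UMI, against 1.24% of the other day 6 cells (79 of 6373). Crest cells of the anterior head lack Hox RNA, and in neural crest-like cells 0.592% (1 of 169) had one, at a median of 14958 UMIs per cell against 13248 in the midbrain/hindbrain-like class.

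Nearly all Hox RNA of the class was of groups 1 and 2, with 238 of its 245 UMIs. Hoxb2 had 55 UMIs in it, against 13 in all other day 6 cells, or 15.0 CPM against 0.155 CPM. Its ratio of 96.8 (52.2 to 193) was the highest of the 8 members judged. Hoxa2, with 44 against 20, had a ratio of 50.3 (29.1 to 90.2), and Hoxb1, with 29 against 14, one of 47.4 (24.3 to 97.1).

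These were among the 4 of 8 members judged that were higher in the class, and 0 were lower, beside 6.39% higher and 4.76% lower among the 15410 genes judged. Hoxa7, Hoxb9 and Hoxc13 had no UMI in the class, where a count of 0 allows up to 0.816 CPM, a limit above their level in the other cells. At this depth their absence from the class was not detectable as a difference. The 7 UMIs of groups 3 to 13 in the class were 2 each of Hoxa3 and Hoxa5 and 1 each of Hoxb4, Hoxc4 and Hoxc8.

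**Figure D2:**
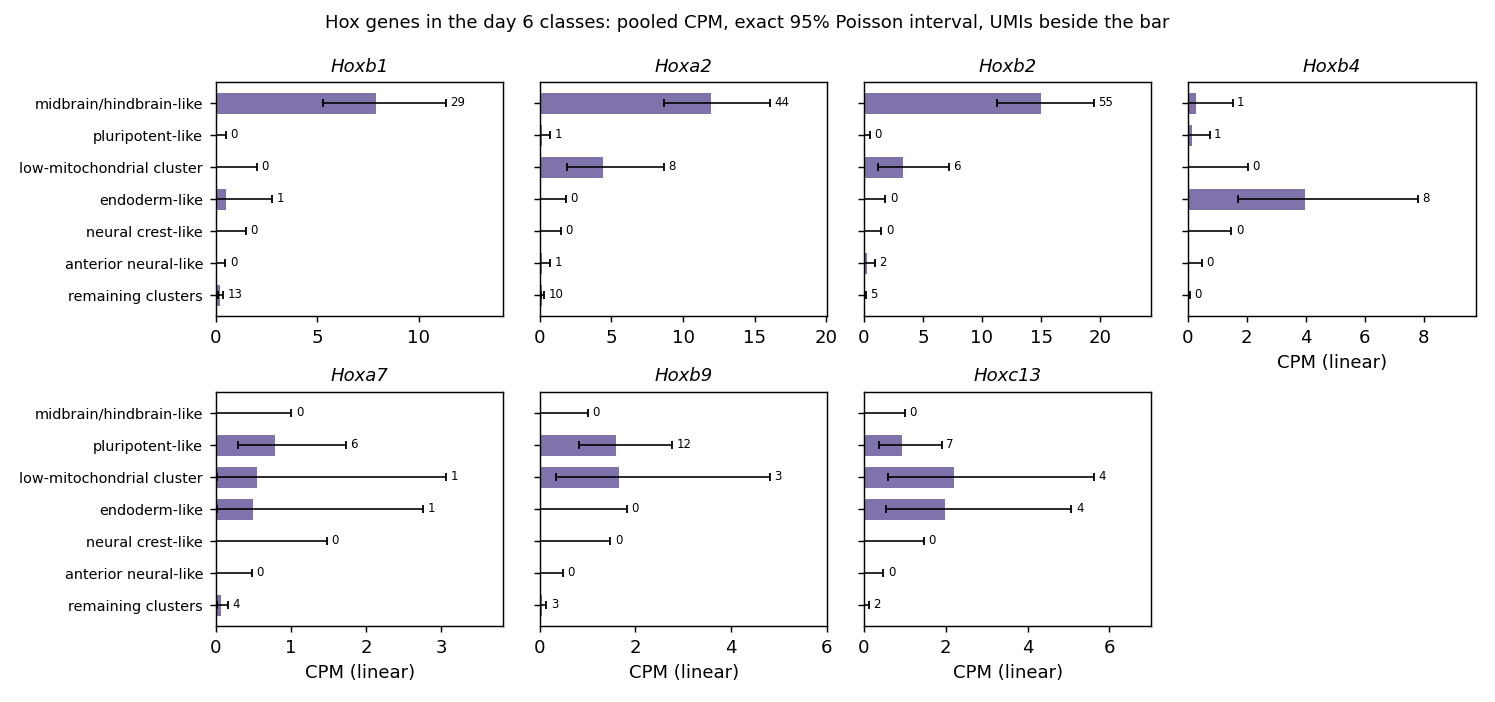
Level of 7 members with at least 10 UMIs in a library (horizontal axes, linear CPM, each panel with its own range) in the 7 day 6 groups of cells (vertical axis), with exact 95% Poisson intervals and the UMIs beside each bar. Hoxb1, Hoxa2 and Hoxb2 peak in the midbrain/hindbrain-like class at 7.89, 12.0 and 15.0 CPM, and Hoxb4 in the endoderm-like class at 3.96 CPM.

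Outside this class, most Hox UMIs of the pluripotent-like cells (40 of 59) and of the endoderm-like cells (27 of 32) were of groups 3 to 13. Those of the low-mitochondrial cluster described below (42 of 55), of the remaining clusters (55 of 72) and of anterior neural-like cells (6 of 8) were mostly of groups 1 and 2. In the 526 pluripotent-like cells, whose markers include Nanog, Zfp42 and Dppa5a, the members had 59 UMIs and 7.80 CPM (5.93 to 10.1). Hoxb9 had 12 UMIs there, against 6 in the other day 6 cells, a ratio of 21.2 (7.36 to 68.9). Hoxa7, with 6 against 6, had a ratio of 10.6 (2.83 to 39.7), and Hoxc13, with 7 against 10, one of 7.42 (2.40 to 21.6).

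Group 2 and Hoxb1 were lower in pluripotent-like cells than in the other day 6 cells pooled, which take in the midbrain/hindbrain-like class. Hoxb2 had 0 UMIs there, against 68 in the other day 6 cells, at least 2.14-fold lower, Hoxb1 had 0 against 43, at least 1.35-fold lower, and Hoxa2 had 1 against 63, a ratio of 0.168 (0.00419 to 0.972). In all, 3 of the 8 members were higher and 3 lower in pluripotent-like cells, beside 19% and 25% of all genes judged. The call for Hoxb1 took its 0 UMIs as a ratio of 0, and its limit of 1.35-fold lies below the 1.5-fold rule. All 3 lower calls are set against a pool in which the midbrain/hindbrain-like class held most UMIs of these genes. In the remaining clusters Hoxb2 was at 0.0800 CPM, Hoxb1 at 0.208 CPM and Hoxa2 at 0.160 CPM. These levels lie below the 0.396 CPM that a count of 0 allows in pluripotent-like cells, so no difference from those clusters could be seen. Each of the Hox-positive pluripotent-like cells held 1 or 2 Hox UMIs, and 45 of 52 held 1. On day 4, 15 of the 17 Hoxb9 UMIs were in the pluripotent-like cluster, at 0.749 CPM, against 0.0258 CPM in the epiblast-like cluster. Hoxc13 had 5 UMIs there, against 4 in the epiblast-like cluster, and Hoxa7 had 3 against 2, too few to judge. The 1669 pluripotent-like cells of day 4 held 38 Hox UMIs in all, 1.90 CPM (1.34 to 2.60).

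In the 164 endoderm-like cells of day 6, which carry Gata6, Gata4, Sox17 and Dab2, the members had 32 UMIs and 15.8 CPM (10.8 to 22.4). Hoxb4 had 8 UMIs there, against 2 in the other cells, a ratio of 170 (33.9 to 1642), and Hoxc13 had 4 against 13, a ratio of 13.1 (3.10 to 42.3). These 2 of the 8 members were higher, beside 21.7% of all genes judged. The 8 UMIs of Hoxb4 were in 7 cells. The class also held pluripotent markers at a summed 1542 CPM, with Nanog and Dppa3 at 0, against 6042 CPM in the pluripotent-like class, and their part in these values was not tested. The 51 endoderm-like cells of day 4 held 8 Hox UMIs, 12.2 CPM (5.27 to 24.1), none of them of Hoxb4.

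A cluster of 187 cells with very low mitochondrial counts (a median of 0.0599% of UMIs) and a median of 8745 UMIs per cell received no name. It held 55 Hox UMIs and 30.2 CPM (22.7 to 39.3), the next level after the midbrain/hindbrain-like class, and 12.3% of its thinned cells had a Hox UMI. Hoxa2 had 8 UMIs there and Hoxb2 6, while Hoxb1 had 0. Hoxc13 had 4 and Hoxb9 3. Its leading genes were Prph, Gadd45g and Perp, and 161 of its cells had sat in the epiblast-like cluster of the joint clustering. The midbrain/hindbrain markers summed to 30.2 CPM in it, against 19.9 CPM in the remaining clusters. En1, Pax5 and Pax7 were at 0, which allows up to 1.65 CPM, a limit above their level in the remaining clusters. Epiblast, pluripotent and surface ectoderm markers summed to 356, 356 and 341 CPM in it, against 63.1, 27.1 and 62.6 CPM. The part of its low mitochondrial counts in these values was not tested.

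Neural crest-like cells, 169 in number and marked by Sox10, Twist1 and Tfap2a, held 1 Hox UMI, of Hoxc8, or 0.40 CPM (0.0101 to 2.23). Groups 1 and 2 were at 0 there, which allows up to 1.20 CPM. Of the 8 members judged, 1 was lower, beside 12.3% of all genes judged. The class was too small to show a difference for the others.

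Anterior neural-like cells, marked by Fezf2, Emx2, Otx1 and Lhx5, held 8 Hox UMIs in 562 cells, 1.04 CPM (0.448 to 2.04). The remaining clusters, 4765 cells that carry most of the optic vesicle markers, held 72 UMIs, 1.15 CPM (0.901 to 1.45), 13 of them of Hoxb1. Their share of thinned cells with a Hox UMI, 0.588% at a median of 12384 UMIs per cell, was close to that in neural crest-like cells, which rests on 1 cell of 169 (0.592%, 0.0150 to 3.25). The part of free RNA in the share of the remaining clusters was not tested, and 1 cell of these clusters, described below, held 7 Hox UMIs. On day 4 the share was 0.337% in the epiblast-like cluster and 1.28% in the pluripotent-like cluster, and 0 of 49 optic vesicle-like cells had a Hox UMI.

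Hox UMIs gathered in few cells. On day 6, 247 cells held at least 1 Hox UMI and 77 held at least 2, and the 77 carried 302 of the 472 UMIs (64%). On day 4, 92 cells held at least 1 and 9 held at least 2, and the 9 carried 36 of 119 (30.3%). Because UMIs of 1 cell are not independent, the intervals given here are narrower than the true counting error. After thinning, 1.93% of day 6 cells (128) and 0.552% of day 4 cells (44 of 7965) had a Hox UMI.

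On day 6, 184 cells held 1 member, 38 held 2, 15 held 3 and 10 held 4, whereas on day 4 86 held 1 and 6 held 2. The 3 cells with the most Hox UMIs, 12 each, were all midbrain/hindbrain-like. Of the 18 day 6 cells with at least 6 Hox UMIs, 16 were midbrain/hindbrain-like. One of the other two stood apart, a cell of the remaining clusters with 2 UMIs each of Hoxa7, Hoxb9 and Hoxb8 and 1 of Hoxb2, and with no UMI of En1, Sox10, Pax6 or Dppa5a.

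Hoxa2, Hoxb1 and Hoxb2 were found together within the midbrain/hindbrain-like class. Of its 29 Hoxa2-positive cells, 19 (65.5%, 45.7 to 82.1) held Hoxb2, against 15 of 239 (6.28%, 3.55 to 10.1). Of its 20 Hoxb1-positive cells, 13 (65.0%, 40.8 to 84.6) held Hoxb2, against 21 of 248 (8.47%, 5.32 to 12.7), and 9 (45.0%, 23.1 to 68.5) held Hoxa2, against 20 of 248 (8.06%, 5 to 12.2). Each pair of these genes lay in this direction whichever gene was taken first, with intervals that did not overlap. Both orders of a pair rest on the same joint cells and are not separate results. On day 4, 1 of the 10 Hoxa2-positive cells held Hoxb2 and 0 held Hoxb1, with an exact interval for the Hoxb1 share that reaches 30.9%. Shares over pairs were not thinned, and Hox-positive cells of the class had a median of 16165 UMIs, against 12216.5 in its Hox-negative cells.

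**Figure D3:**
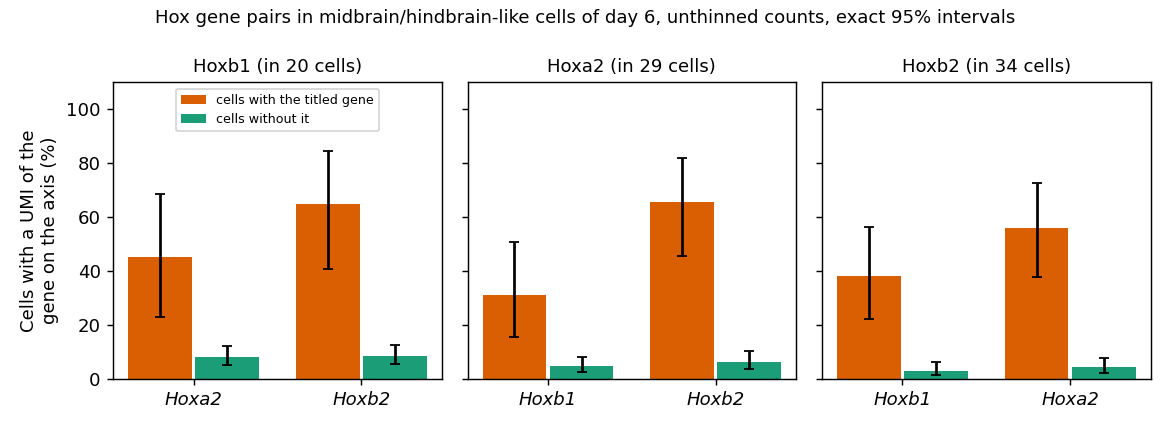
Share of midbrain/hindbrain-like cells of day 6 with a UMI of the gene on the axis (vertical axis, percent), among cells with the gene in the title (orange) and without it (green), with exact 95% intervals. In each of the 3 panels every orange bar stands above its green bar, with intervals apart, as for Hoxb2 at 65.5% of Hoxa2-positive cells against 6.28%.

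The partner genes were used to describe the Hox-positive cells, whose position in the organoid was not measured. En1 marks the midbrain and its border with the hindbrain, Sox10 the migrating neural crest, Pax6 the eye field and forebrain, and Dppa5a the pluripotent state. Shares are of cells thinned to 5000 UMIs. Over all day 6 cells, Pax6 was found in 15 of 128 Hox-positive cells (11.7%, 6.71 to 18.6), against 60.5% of Hox-negative cells (59.3 to 61.7). Dppa5a went the other way, with 61 of 128 (47.7%, 38.8 to 56.7), against 16.8% (15.9 to 17.8). En1 was found in 2 of 128 (1.56%, 0.190 to 5.53), against 0.676%, intervals that overlap, and Sox10 in 0 of 128, which allows a share of up to 2.34% by the limit of 3 counts and 2.84% by the exact interval, against 0.476%.

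Within the midbrain/hindbrain-like class, Hox and En1 seldom met in a cell. En1 was found in 1 of 49 Hox-positive cells (2.04%, 0.0517 to 10.9), against 34 of 219 Hox-negative cells (15.5%, 11 to 21). In unthinned counts, 64 cells of the class held Hox, 2 of which also held En1, against 51 of the 204 without Hox. The class of 268 thus held Hox-positive cells, En1-positive cells and 153 cells with neither. By level, En1 had 7 UMIs in Hox-positive cells, against 102 in Hox-negative cells, 6.72 CPM against 38.7 CPM, a ratio of 0.174 (0.0681 to 0.371).

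Dppa5a again went with Hox in this class, in 24 of 49 Hox-positive cells (49.0%, 34.4 to 63.7), against 25 of 219 (11.4%, 7.53 to 16.4). Neural crest-like cells, a class that should lack it, had Dppa5a in 5.92% of cells. Pax6 was in 2 of 49 (4.08%), against 16.9%, and the lower share was close to that of neural crest-like cells (4.73%, 2.07 to 9.11). Sox10 was in 0 of 49, which allows a share of up to 6.12% by the limit of 3 counts and 7.25% by the exact interval, and in 0 of 219.

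Without the midbrain/hindbrain-like class, Dppa5a was still in 46.8% of Hox-positive day 6 cells, against 17.0% of Hox-negative cells, and Pax6 in 16.5%, against 62.0%. There the classes themselves differ in both genes. In pluripotent-like cells Dppa5a was in 12 of 12 Hox-positive cells, against 97.3% of the others, and in endoderm-like cells in 11 of 12, against 78.9%. In the remaining clusters Pax6 was in 8 of 28 (28.6%, 13.2 to 48.7), against 73.5%, and Dppa5a in 10.7%, against 7.22%.

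On day 4, Dppa5a was in 29 of 44 Hox-positive cells (65.9%, 50.1 to 79.5), against 49.1% (48.0 to 50.2), and Pax6 in 2 of 44, against 2.01%. Within the clusters of day 4 the Dppa5a shares lay close, with 6 of 21 (28.6%, 11.3 to 52.2) against 36.1% in epiblast-like cells and 21 of 21 against 98.1% in pluripotent-like cells. En1 was in 1 of 44 on day 4 and Sox10 in 0 of 44.

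**Figure D4:**
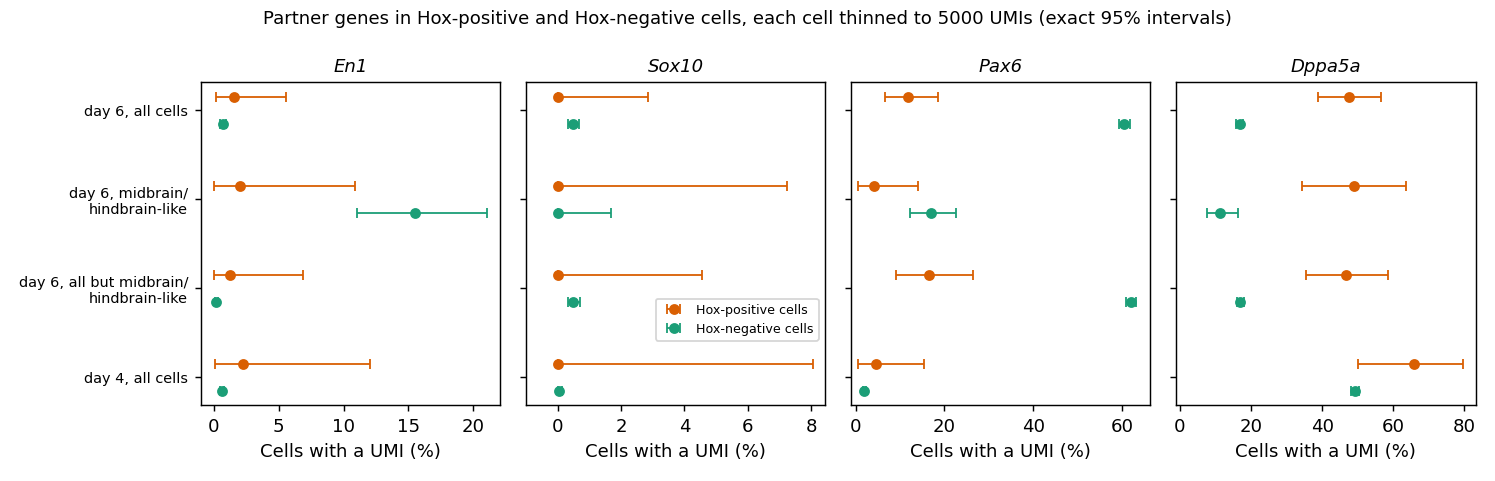
Share of cells with a UMI of En1, Sox10, Pax6 or Dppa5a (horizontal axes, percent, each panel with its own range) among Hox-positive (orange) and Hox-negative (green) cells, each thinned to 5000 UMIs, with exact 95% intervals. In midbrain/hindbrain-like cells En1 stands at 2.04% of Hox-positive cells against 15.5%, and Dppa5a at 49.0% against 11.4%.

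Among Hoxa2, Hoxb1, Hoxb2 and Hoxb9, Hoxb9-positive cells of day 6 held Dppa5a most often and Hoxa2-positive cells least. The shares were 15 of 17 cells (88.2%) and 22 of 47 (46.8%) in unthinned counts, and were not split by class. Of the Hoxb9 UMIs 12 of 18 were in pluripotent-like cells, and of the Hoxa2 UMIs 44 of 64 were in the midbrain/hindbrain-like class. Hoxb1-positive cells held it in 21 of 34 (61.8%) and Hoxb2-positive cells in 25 of 44 (56.8%). The intervals of these shares overlap except where Hoxb9, at 63.6 to 98.5%, is set against Hoxa2, at 32.1 to 61.9%. Sox10 was in none of these cells, and En1 was in 1 each of the Hoxb1- and Hoxb2-positive cells.

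Within the midbrain/hindbrain-like class the 64 Hox-positive cells were set against the 204 others over all genes. The 4 members with enough UMIs were higher by the way the cells were chosen, which says nothing about them. Of the 10167 genes judged, 3.03% were higher and 6.77% lower. Of the upstream and hindbrain regulators listed, 14 could be judged, and 7 were higher in the Hox-positive cells and 3 lower. Their median was 1.06 on the log2 scale, beside -0.07 over all genes. Rarb, a retinoic acid receptor that is itself induced by the ligand, stood at 20.2 CPM against 3.80 CPM, a ratio of 5.31 (2.39 to 12.6), and Rara, another receptor, was at 2.09 (1.08 to 4.01). Cyp26a1, the enzyme that breaks retinoic acid down, was at 3.11 (1.40 to 7.04). Egr2, a factor of hindbrain segments, was at 3.37 (1.03 to 11.8) and Fgf3, a growth factor made in the hindbrain, at 4.22 (1.39 to 14.1). Wnt8a had 21 UMIs against 0, at least 17.7-fold higher, and Irx2, a hindbrain homeobox gene, was at 2.32 (1.24 to 4.32). The 3 that were lower were Wnt3a, at 0.292 (0.102 to 0.679), Fgf8, a signal of the border between midbrain and hindbrain, at 0.432 (0.163 to 0.972), and Zic1, a dorsal factor, at 0.434 (0.269 to 0.672). Gbx2, which marks the anterior hindbrain, was at 2.08 (0.951 to 4.49) and Irx3 at 1.36 (0.986 to 1.87), both within the limits.

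The 12 midbrain/hindbrain markers that served to name the class summed to 112 CPM in its Hox-positive cells, against 266 CPM in its Hox-negative cells. By value, 2 of the 12, Gbx2 and Egr2, had more in Hox-positive cells, and En2 was at 0 there. Wnt1, a signal of the midbrain border, was at 0.312 (0.215 to 0.440), and Pax3, a dorsal factor, at 0.541 (0.355 to 0.801). Outside that list, and picked after its value was seen, Otx2, which marks forebrain and midbrain, was at 30.7 CPM against 116 CPM, a ratio of 0.265 (0.178 to 0.381). Tubb3, a tubulin of young neurons, was among the lowest of all, at 14.4 CPM against 290 CPM, a ratio of 0.0496 (0.0276 to 0.0823).

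**Figure D5:**
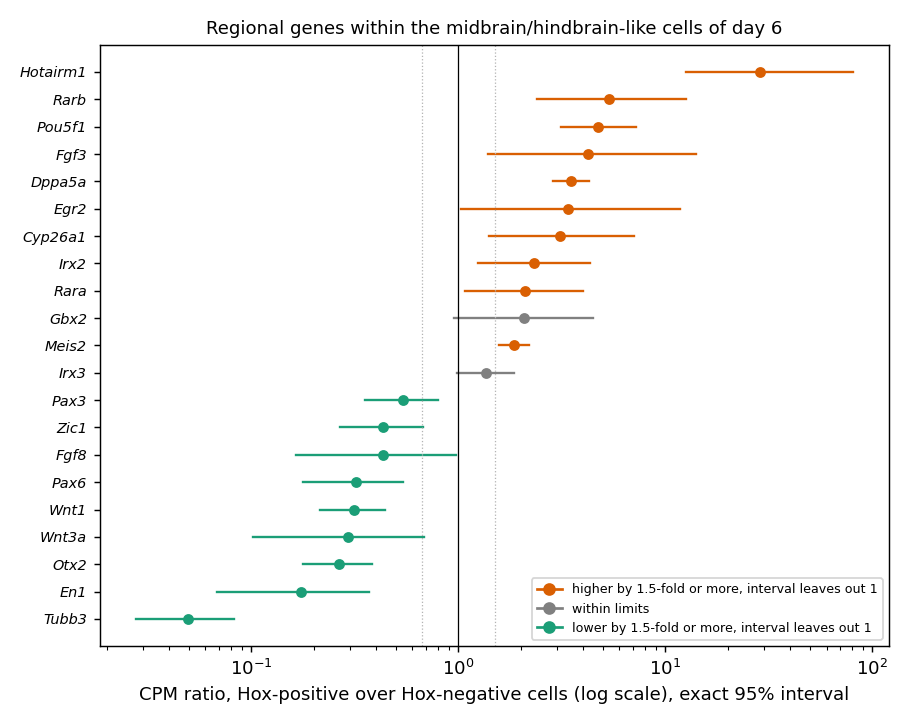
Ratio of the CPM in Hox-positive over Hox-negative midbrain/hindbrain-like cells of day 6 (horizontal axis, log scale) for genes picked in part after their values were seen (vertical axis), with exact 95% intervals; dotted lines mark 1.5-fold. Hotairm1, at 28.7, Rarb, at 5.31, and Dppa5a, at 3.49, lie to the right, and Otx2, at 0.265, En1, at 0.174, and Tubb3, at 0.0496, to the left.

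The 10 genes with the highest ratio among those at 50 CPM or more in Hox-positive cells, picked from the values, were Hotairm1, Pla2g1b, Epcam, Pou5f1, Upp1, Rhox5, Rbpms2, Dppa5a, Mt2 and Mt1. Hotairm1, a noncoding RNA of the Hoxa cluster, was at 65.3 CPM against 2.28 CPM, a ratio of 28.7 (12.5 to 80.8). Its gene model overlaps another gene on the opposite strand, and the use of strand in the counting is not given in the sources used here, so its count is uncertain. Epcam, an epithelial adhesion protein, was at 6.52 (4.44 to 9.75), and Pou5f1, a core factor of pluripotency, at 4.73 (3.14 to 7.20). The 10 lowest were Efna2, Tubb3, Gadd45g, Pcp4l1, Lix1, Flrt3, Hes6, Vim, Tpbg and Cntnap2.

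The other marker lists differed within the class as well. By value alone, 7 of the 10 pluripotent markers had more CPM in its Hox-positive cells, with a summed level of 268 CPM, against 84.3 CPM in its Hox-negative cells, and Esrrb, Tdgf1 and Tfcp2l1 were at 0 in the Hox-positive cells. Dppa5a made up 240.0 CPM of the 268, against 68.7 of the 84.3, and pluripotent-like cells held 6042 CPM of these markers. All 6 epiblast markers had more, at 270 CPM in sum against 125 CPM. The 8 neuron markers each had no more than in Hox-negative cells, at 193 CPM in sum against 562 CPM, with Dcx, Neurog1, Neurog2 and Isl1 at 0 in Hox-positive cells. Of the 10 neural crest markers 2 had more, Crabp1 and Foxd3, and the sum was 1060 CPM against 442 CPM, of which Crabp1 made up 1034 CPM against 344 CPM, with Sox10, Tfap2b and Snai2 at 0 in Hox-positive cells. The median Scrublet doublet score was 0.0785 in Hox-positive cells, against 0.0611 in Hox-negative cells of the class. None of the 64 Hox-positive cells was among the 5% of cells with the highest scores, but Scrublet itself did not work on these libraries. The part of these markers in the values above was not tested.

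Over all day 6 cells, Hox-positive cells were the 247 with a UMI, against 6394 without, and the 8 members judged were again higher by choice, beside 11.6% of all genes higher and 4.13% lower. Of the 247, 64 were midbrain/hindbrain-like, 52 pluripotent-like and 27 endoderm-like, classes that held 268, 526 and 164 of the 6641 day 6 cells. The values below were not adjusted for this mix of classes. The highest ratios were those of Ctsh, Crabp1, Col4a1, Lama1, Srgn, Pth1r, Rhox5, Fabp3, Col4a2 and Rbp4, of which Col4a1, Col4a2 and Lama1 encode basement membrane proteins that endoderm makes in quantity. By value, all 10 endoderm markers had more CPM in Hox-positive cells, at 654 CPM in sum against 141 CPM, and so had 9 of 10 pluripotent markers, at 1779 CPM against 540.1 CPM. The lowest were Six6, Rax, Lhx2, Six3, Fbn2, Shisa2, Pax6, Necab2, Lix1 and Nr2f1. The first 4 and Pax6 are factors of the eye field, and Six6 was at 20.7 CPM against 115 CPM, a ratio of 0.179 (0.141 to 0.225).

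Most Hox cofactors were higher on day 6, and most were lower in pluripotent-like and endoderm-like cells than in other day 6 cells. Between the days, 5 of the 9 cofactors were higher on day 6 and 1 was lower, beside 19.2% and 14.3% of all genes judged. Their median log2 ratio was 0.85, beside 0.12 over all genes. Meis1 was 56.5-fold higher (44.1 to 73.5), at 36.7 CPM against 0.649 CPM, and Meis2 was 11.7-fold higher (10.9 to 12.7). Pknox2 and Meis3 were also higher, at 7.71 and 1.83. In the midbrain/hindbrain-like class 1 of 9 was higher and 1 was lower, beside 6.39% and 4.76% of all genes judged. Meis2 was higher, at 1.94 (1.78 to 2.11), and Meis1 lower, at 0.606 (0.481 to 0.753). The median log2 ratio there was 0.26, beside 0.03. In pluripotent-like cells 7 of the 9 were lower, beside 25% of all genes judged, and 1 was higher, with a median log2 ratio of -2.23 beside -0.18. In endoderm-like cells 6 were lower, beside 15.8% of all genes judged, and 1 was higher, with a median of -1.84 beside 0.09. Within the class, Meis2 was higher in Hox-positive cells, at 245 CPM against 132 CPM, a ratio of 1.85 (1.57 to 2.18), and Pbx4 lower, at 0.328 (0.126 to 0.723).

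Of the 23 upstream and hindbrain regulators, 21 could be judged between the days. Of these, 11 were higher on day 6 and 5 lower, beside 19.2% and 14.3% of all genes judged. Their median was 1.17 on the log2 scale, beside 0.12. Cdx1, which acts on Hox genes of the trunk, had 21 UMIs against 1, a ratio of 23.6 (3.79 to 976). Rarb was at 22.9 (15.5 to 35.5), Zic1 at 22.3 (15.9 to 32.3) and Wnt3a at 11.9 (5.49 to 30.6).

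In the midbrain/hindbrain-like class 10 of 20 regulators were higher and 1 was lower, beside 6.39% and 4.76% of all genes judged. Their median there was 1.27 on the log2 scale, beside 0.03. The largest ratios were those of Wnt3a, at 82.9 (47.0 to 155), Wnt8a, at 32.0 (15.7 to 66.8), and Irx2, at 17.5 (11.7 to 26.2). Aldh1a2, the enzyme that makes retinoic acid, was the 1 that was lower, with 1 UMI against 179. These lists were drawn up with earlier results of these data known.

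Polycomb and Trithorax genes keep Hox clusters silent or active. Of 16 listed, 4 were higher on day 6 and 3 lower, beside 19.2% and 14.3% of all genes judged. Their median log2 ratio was 0.10, close to the 0.12 over all genes. Cbx7, a Polycomb subunit of stem cells, was at 5.49 CPM against 22.7 CPM, a ratio of 0.241 (0.218 to 0.267), Ezh1 was at 0.466 and Jarid2 at 0.512, and Bmi1 was 3.11-fold higher. In the midbrain/hindbrain-like class 2 of 16 were higher and 0 lower, beside 6.39% and 4.76% of all genes judged. The 2 were Kdm6a, at 1.64, and Cbx7, at 1.52. Of 5 homeobox relatives of the clusters, Gsx1 alone could be judged, and it was lower on day 6, with 3 UMIs against 32.

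The 22 Hoxb2 UMIs of day 4 came from 5 cells of the epiblast-like cluster, which held 8, 6, 5, 2 and 1. Hoxb1 was found in 2 of them, with 1 and 4 UMIs. The 5 cells were chosen for their Hoxb2, and their other genes are given as a description. They held no UMI of Fgf5, a gene of the epiblast, of which the other 6371 cells of that cluster had 184 CPM, and the exact interval over the 70413 UMIs of the 5 cells reaches 52.4 CPM. Meis2 was at 185 CPM (98.3 to 316) in them, against 8.79 CPM, and Meis1 at 99.4 CPM (40.0 to 205), against 0.440 CPM.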

How the data were processed

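The deposited files hold raw counts, UMIs per gene and cell barcode as the authors' pipeline wrote them. Build mm10, Seurat 2.3.4 and Cell Ranger 2.0.1 are listed in the notes of the submitters, whereas the study's methods name later versions of both tools, and the use of strand and of multiply mapped reads in counting is not given in the sources used here. Of 7446 day 6 barcodes 6641 were kept, and of 9114 day 4 barcodes 8147, by the study's limits of 500 to 5000 genes, 500 to 26000 UMIs, at most 10% mitochondrial, at least 20% ribosomal protein and at most 0.5% haemoglobin counts. The study states more cells for each library than the barcodes held here, so the kept cells are not the same set as the study's. Scrublet called 1 and 3 doublets, so it had not worked and doublets were left in.

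Cells were clustered with scanpy 1.11.5 and leidenalg 0.10.2 in Python 3.11.15 (3000 variable genes, 50 components, 20 neighbours, resolution 0.2), with 96 genes held out, namely the Hox genes, partners and listed genes. Day 6 alone was clustered at resolution 1, chosen after the data were seen. A class was named from at least 3 markers at 2-fold or more. Intervals are exact (scipy 1.17.1): Poisson for CPM, conditional binomial for ratios, Clopper-Pearson for shares, at 95%. Thinned shares used 5000 UMIs a cell, so 182 shallower cells of day 4 and 0 of day 6 dropped out. The ratio script was tested on simulated data.

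Values are given for members with at least 10 UMIs in a library, for En1, Sox10, Pax6 and Dppa5a, and for up to 4 genes of each list with the largest ratios. For Hox-positive cells the 10 highest and 10 lowest genes are named, without mitochondrial, ribosomal protein, haemoglobin and unnamed genes. Other genes, among them those named within the midbrain/hindbrain-like class and in the day 4 cells, were picked after their values were seen. The members and lists were chosen with earlier results of these data known. Of these, 1 member and 1 marker are not reported here by name, and sums and counts over lists include them.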

Additional observations from a re-analysis of the deposited data

Results flagged for a closer look

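Hox RNA was also present in barcodes and genes that the comparisons did not use. The 805 day 6 barcodes left out by the filter, of which 791 were over its limits on UMIs or genes, held 147 Hox UMIs, 4.98 CPM (4.20 to 5.85). The 967 day 4 barcodes left out held 23 Hox UMIs, 0.673 CPM (0.426 to 1.01).

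Noncoding genes of the Hox clusters lie outside the members. Hotairm1 had 273 UMIs on day 6, against 68 on day 4, a ratio of 4.51 (3.45 to 5.97). Of its day 6 UMIs, 74 were in midbrain/hindbrain-like cells, 57 in the low-mitochondrial cluster and 0 in neural crest-like cells, and 59 of its 195 positive cells also held a member. Halr1, which lies at the edge of the Hoxa cluster, had 34 UMIs on day 6, against 63 on day 4, a ratio of 0.606 (0.387 to 0.934), and 30 of the 34 were in pluripotent-like cells. Hoxb3os had 11 UMIs on day 6, 8 of them in midbrain/hindbrain-like cells, against 1 on day 4. Haglr had 7 against 11, and Hoxb5os had 4, all in 1 cell, against 0.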

How the results depend on the processing

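Over 104 alternatives to 18 values, 79 stayed within the counting interval (for numbers of genes, within 1.5-fold) and 25 moved beyond it. A reversal was defined for the ratio between the days alone, and 0 of its alternatives reversed. The ratio of Hox CPM between the days ran between 4.11 and 4.98. Detection from 1 UMI gave 26 genes on day 6 and 21 on day 4, and from 10 UMIs 8 and 6. Totals without mitochondrial and ribosomal protein genes gave 8.57 CPM on day 6, 2.03 CPM on day 4 and 106.2 CPM in midbrain/hindbrain-like cells. Without thinning, 3.72% of day 6 and 1.13% of day 4 cells had a Hox UMI, and of Hox-positive day 6 cells 32.8% had Pax6 and 64% Dppa5a. With at least 2 Hox UMIs the Dppa5a share was 70.1%, and in midbrain/hindbrain-like cells alone the Pax6 share was 4.08%. En1, found in 2 Hox-positive cells, was in 0% with all barcodes and in 0% without the 5% of cells with the highest doublet scores.

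The share of Hox UMIs by cluster depended most on the clustering. The optic vesicle-like share was 2.33% at resolution 0.4, 72.2% at 0.1 and 57.6% with the held-out genes kept. The pluripotent-like share was 20.8% at 0.1, 14% without regressing the sample, 22% with the held-out genes kept, 43% with day 6 alone and 12.5% with day 6 alone at resolution 1. The epiblast-like share was 4.66% at 0.4 and 31.8% without regressing the sample. The cause was not tested. No clustering at resolution 0.4 or below formed a midbrain/hindbrain-like cluster, so none gave a value for it. With only the Hox genes held out the finer step gave 265 such cells, 254 of them shared with the 268, and 256 Hox UMIs. At resolution 0.7 a cluster of 834 cells without a name held 265 of the 268 and 253 Hox UMIs.

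No paired analysis was possible because each day is 1 library with no replicate numbers. Depth limits the members under 10 UMIs and the classes of few cells.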

Other observations

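The Hoxb2-positive cells of day 4 also differed from their cluster in genes not named above. Wnt1 was at 42.6 CPM (8.79 to 125) in the 5 cells, against 0.673 CPM in the other epiblast-like cells, and Pou5f1 was at 71.0 CPM (23.1 to 166), against 336 CPM. These cells were chosen for Hoxb2 after its values were seen, and no test was made.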
